A study of Homo sapiens with 24 samples.

Results

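The genes described here are 59 named protein-coding genes of the long arm of human chromosome 4 (4q), out of 29744 genes in the deposited table. They were taken by name from a list drawn up with earlier results of these data known. The list described them as spread along 4q, lower in HCC1806 cells doubled by slippage or cytokinesis failure and higher in MDA-MB-231 cells doubled by fusion. The members were thus selected on their log2 fold changes in those 3 comparisons, whose values describe how the genes were chosen and carry no test here. Of the 59 members, 58 passed the filter on low counts in each line. TBCK, a TBC-domain protein of the endosomal system, fell to the filter in both lines, with group means of 0.862 to 1.97 CPM (counts per library size, TMM-scaled). By known role, 10 members act in nucleotide, lipid and energy metabolism, 10 in RNA synthesis and processing, 16 in membrane traffic, 8 in protein turnover and modification, 8 in chromatin and transcription, and 7 in signalling, adhesion and the cytoskeleton.

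The data were 24 libraries of TAGseq, which reads the 3′ ends of polyadenylated transcripts, from HCC1806 and MDA-MB-231, established human cell lines of triple-negative breast cancer. Each line had 4 groups of 3 replicates: a population whose genome had been doubled by cell fusion, one doubled by mitotic slippage (exit from mitosis without division), one doubled by failed cytokinesis, and a parental aneuploid control. The doubled cells had been obtained by flow sorting and then expanded, and all groups were sampled after 48 hours of growth in wells without further treatment. The labels name no separate derivations within a way of doubling, so the way of doubling and the population it gave cannot be told apart. The labels do not say that the replicates came from separate derivations, so p-values measure only the spread between these libraries, which may be technical. Library totals ran from 3060622 to 4030297 estimated counts in HCC1806 and from 2455707 to 3837957 in MDA-MB-231. In MDA-MB-231, slippage replicate 3 and cytokinesis failure replicate 1 differed more from their own group than the other libraries did. The 6 basal epithelial markers (KRT5, KRT14, KRT17, CDH1, EPCAM and DSP) summed to 584 to 733 TPM (length-scaled transcript shares) in HCC1806 libraries and to 8.64 to 16.6 in MDA-MB-231 libraries. The 6 mesenchymal markers (VIM, ZEB1, CDH2, SPARC, AXL and FN1) summed to 9.32 to 16.3 TPM in HCC1806 and to 1350 to 1550 in MDA-MB-231. VIM alone stood at 1210 to 1400 TPM in MDA-MB-231. CDH2 and SPARC were at or below 0.322 TPM in MDA-MB-231, and CDH2 went the other way, with 5.09 to 10.8 TPM in HCC1806. Sums of fibroblast, immune and endothelial markers did not pass 2.45 TPM in any library.

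A chromosome arm is a unit that dividing cancer cells can gain or lose in a single event, and genes that share an arm need share no function. After a genome has doubled, cells tend to lose chromosomes over later divisions, so that arms can come to differ in copy number between derived populations. The transcript levels of many genes follow gene dose, while others are buffered or set by regulation. DNA copy number was not analysed here. In pooled cells, fewer cells with a high level and less RNA per cell cannot be told apart.

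Members that start next to each other offer a view of how closely neighbours move together, and their promoters are shown for that reason. Genes that start back to back on opposite strands share the stretch between their starts. UBE2D3 and CISD2 start 82 bases apart, PPAT and PAICS 126 bases apart, and LARP7 starts 54 bases from ZGRF1, which is no member. In all, 9 members had a gene outside the list starting within 1000 bases on the other strand. The windows below run from 250 bases before to 50 after a start and are RefSeq sequence of GRCh38.p14. They cover chr4:102868846-102869145 (minus strand, holding the CISD2 start as well), chr4:112636893-112637192 (plus strand) and chr4:56435566-56435865 (minus strand, holding the PAICS start). Capitals mark matches on either strand to GGGCGG (the GC box), CCAAT and CCGGAA (the core of ETS sites), and matches may overlap.
UBE2D3: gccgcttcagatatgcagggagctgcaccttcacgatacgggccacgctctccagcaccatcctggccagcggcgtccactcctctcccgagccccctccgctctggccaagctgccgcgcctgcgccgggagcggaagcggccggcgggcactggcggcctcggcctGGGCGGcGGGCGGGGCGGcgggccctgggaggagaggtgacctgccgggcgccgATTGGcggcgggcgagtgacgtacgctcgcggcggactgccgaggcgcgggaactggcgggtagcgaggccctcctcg
LARP7: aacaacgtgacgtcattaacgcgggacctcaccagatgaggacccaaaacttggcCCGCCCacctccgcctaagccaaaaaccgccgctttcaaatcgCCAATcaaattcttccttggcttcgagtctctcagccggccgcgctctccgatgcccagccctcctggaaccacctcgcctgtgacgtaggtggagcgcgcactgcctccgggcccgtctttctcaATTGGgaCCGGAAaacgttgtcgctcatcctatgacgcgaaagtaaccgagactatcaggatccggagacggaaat
PPAT: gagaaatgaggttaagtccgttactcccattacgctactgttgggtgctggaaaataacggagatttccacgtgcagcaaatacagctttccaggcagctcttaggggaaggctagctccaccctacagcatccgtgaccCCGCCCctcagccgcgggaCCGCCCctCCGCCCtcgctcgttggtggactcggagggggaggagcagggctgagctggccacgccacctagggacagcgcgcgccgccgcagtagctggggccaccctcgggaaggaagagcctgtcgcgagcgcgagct
All 3 windows hold a GC box, and the windows of UBE2D3 and LARP7 also hold CCAAT, and that of LARP7 the ETS core. Of the 50 members with a promoter in the RefSeq table, 80% had a GC box, against 44.6% of all promoters in the table and 71.1% of those of genes tested in either line. For the ETS core the shares were 20%, 17.6% and 30.6%, and for CCAAT 32%, 35.7% and 37.2%. The core of NRF1 sites (TGCGCA) was in 10% of member promoters, 8.42% of all promoters and 14.1% of those of tested genes. The YY1 motif (ATGGCGG) was in 6%, 5.72% and 10.5% in that order, and the E2F motif (TTGGCGC) in 6%, 3.12% and 5.26%. A match is a string of letters in this window and says nothing of a factor's presence.

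In the 3 comparisons that chose the members, not every member followed the direction of the list; these values are a description. In HCC1806 slippage, 39 of 58 tested members had a negative and 19 a positive log2 fold change, with a median of -0.041 (-0.60 to 0.32). edgeR called 0 of them at a Benjamini-Hochberg adjusted p below 0.05, where 3.33% of all genes tested were called (1.53% higher and 1.81% lower); 7 had an unadjusted p below 0.05, and DESeq2 and limma on TPM called 0. In HCC1806 cytokinesis failure, 39 were again negative, the median was -0.12 (-0.53 to 0.34), and 12 were called lower and 3 higher, where 17.0% of all genes were called (8.37% higher and 8.63% lower). DESeq2 called 7 lower and 0 higher there. The 3 that edgeR called higher were PTPN13 (0.31), PALLD (0.29) and HMGB2 (0.18). In MDA-MB-231 fusion, 45 were positive, the median was 0.12 (-0.40 to 0.63), and 11 were called higher and 1 lower, where 17.4% of all genes were called (9.34% higher and 8.11% lower). DESeq2 called 7 higher and 0 lower there. The 1 that edgeR called lower was RUFY3 (-0.40), which links vesicles to the cytoskeleton.

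The medians of single libraries showed the same small offsets. Relative to the mean of the line's controls, the member median was -0.0296, -0.0342 and -0.0741 in the 3 slippage libraries of HCC1806 and -0.104, -0.130 and -0.0626 in the 3 cytokinesis failure libraries, against -0.0159, 0.0139 and 0.00611 in control. In MDA-MB-231 it was 0.126, 0.121 and 0.114 in the fusion libraries, against 0.0055, 0.0242 and -0.0234 in control. None of these doubled libraries overlapped the controls of its line. The fusion libraries of HCC1806, which the choice did not use, lay at -0.0475, -0.0352 and -0.0276, also below all 3 controls. In MDA-MB-231, the slippage libraries (0.0188, 0.0551 and 0.0741) and the cytokinesis failure libraries (0.0263, -0.0169 and 0.00304) overlapped control. All 3 doubled groups of a line were set against the same 3 control libraries, so no comparison with control is independent of the choice.

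**Figure D1:**
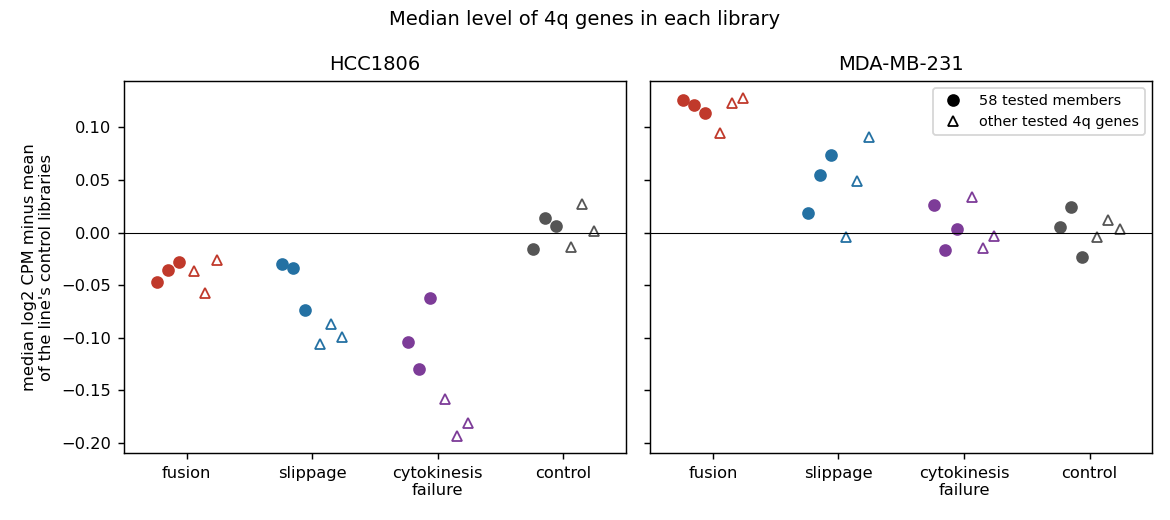
Median log2 CPM of the 58 tested members (filled circles) and of the other tested 4q genes (open triangles) in each library, relative to the mean of the 3 control libraries of the line; each point is 1 library, and the groups are fusion, slippage, cytokinesis failure and control. Member medians are lowest in 2 cytokinesis failure libraries of HCC1806 (-0.130 and -0.104) and highest in the 3 fusion libraries of MDA-MB-231 (0.114 to 0.126).

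Tested 4q genes outside the list, taken from the annotation, had medians as far from 0 as the members or farther. In HCC1806 cytokinesis failure their median was -0.18 over 199 genes, with 59 called lower and 7 higher. In HCC1806 slippage it was -0.099, with 9 lower and 0 higher (35 of the 199 had an unadjusted p below 0.05). In MDA-MB-231 fusion it was 0.12 over 224 genes, with 43 called higher and 10 lower. Genes of the short arm, 4p, had medians of 0.0035 in HCC1806 slippage, 0.021 in HCC1806 cytokinesis failure and 0.033 in MDA-MB-231 fusion. The median over all genes tested lay within 0.0055 of 0 in every comparison of the main edgeR fit. Among the 41 chromosome arms with at least 20 tested genes, 4q with the members included had the lowest median in HCC1806 cytokinesis failure. It had the second lowest in HCC1806 slippage and the third highest in MDA-MB-231 fusion. The list named 4q together with these directions in these same comparisons. The ranks of 4q and the medians of its other genes there are thus not independent of the choice and carry no test. In the other comparisons with control, 4q stood seventh lowest in HCC1806 fusion (-0.064), eighth highest in MDA-MB-231 slippage (0.038) and 11th lowest in MDA-MB-231 cytokinesis failure (-0.017).

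**Figure D2:**
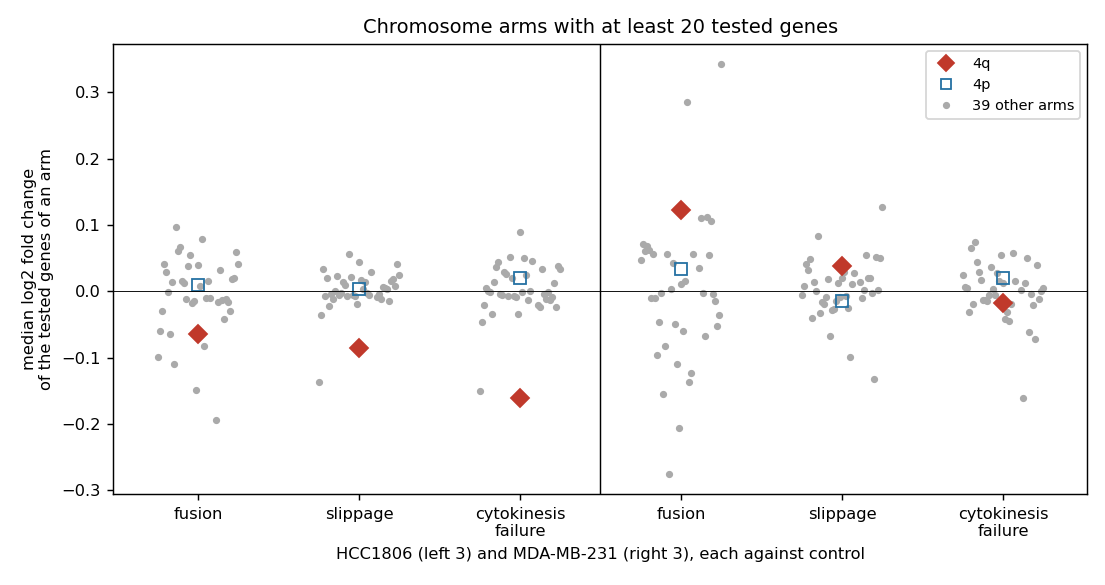
Median log2 fold change of the tested genes of each chromosome arm with at least 20 tested genes, in each doubled population against its control; the red diamond is 4q, the blue square 4p and each grey dot 1 of the 39 other arms. In HCC1806, 4q lies low in all 3 populations, while 4p lies near 0.

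In fusion-derived HCC1806 cells, whose own libraries the choice did not use, LARP7, CISD2, UBE2D3 and HMGB2 rose and RAPGEF2, LRBA, FAT1, CLCN3 and PGRMC2 fell. The control libraries are those against which members were chosen as lower, so this comparison is not independent of the choice and its fold changes are pulled downwards by it. In all, 9 of 58 members were called, 4 higher and 5 lower, where 10.9% of all genes tested were called (5.33% higher and 5.55% lower). Over the 58 members, 22 fold changes were positive and 36 negative, with a median of -0.066, beside -0.064 for the other 4q genes (7 called higher and 16 lower of 199) and -0.0031 for all genes tested. The 9 calls are read gene by gene, since their share was of the order of the background. DESeq2 called 2 higher and 2 lower, limma on log2(TPM + 1) 2 and 2, and limma on log2(TPM + 0.1) 2 and 1.

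LARP7, the protein that binds 7SK RNA and with it holds the elongation factor P-TEFb in check (GRCh38 chromosome 4, 112637143 to 112657586), rose most clearly. It stood at 149, 132 and 145 CPM in the fused cells, against 104, 114 and 101 CPM in control. All fused libraries lay above all controls, for a log2 fold change of 0.42 ± 0.067 (edgeR adjusted p = 1.21e-06), a call that all alternatives and left-out libraries kept. Slippage libraries, at 106, 104 and 106 CPM, lay among the controls.

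UBE2D3, an E2 ubiquitin-conjugating enzyme of broad use, stood at 220.3, 225 and 215 CPM in the fused cells, against 190.2, 190.3 and 197 CPM in control. The groups did not overlap, and it rose by 0.19 ± 0.054 (edgeR adjusted p = 0.00996; 0.0662 without fusion replicate 2). Its back-to-back neighbour CISD2, an iron-sulphur protein of the endoplasmic reticulum and outer mitochondrial membrane, stood at 75.5, 75.2 and 71.6 CPM, against 55.2, 60.3 and 64.1 CPM in control. It rose too, with no overlap of the groups, by 0.31 ± 0.082 (edgeR adjusted p = 0.00626; 0.0727 without control replicate 1). DESeq2 called neither (adjusted p = 0.0549 for UBE2D3 and 0.0768 for CISD2). Limma on the 2 TPM scales called neither (adjusted p = 0.236 and 0.234 for UBE2D3, 0.101 and 0.103 for CISD2). In HCC1806 cytokinesis failure, set against the same controls, UBE2D3 was at 156, 151 and 165 CPM (-0.29) and CISD2 at 50.8, 51.9 and 54.6 CPM (-0.19), both below all controls. Members were chosen as lower in that comparison, and CISD2 was not called there (edgeR adjusted p = 0.113). The pair thus stood above control in 1 doubled population of HCC1806 and, where it was chosen as lower, below it in another.

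HMGB2, a high mobility group protein that bends DNA and is abundant in dividing cells, stood at 215, 201 and 201 CPM in the fused cells, against 164, 171 and 174 CPM in control. Every fused library was above every control, and it rose by 0.28 ± 0.055 (edgeR adjusted p = 0.00011), a call kept under every alternative and left-out library. In the other HCC1806 populations, which share these controls, it stood at 193, 176 and 188 CPM after slippage (0.13) and 195, 184 and 196 CPM after cytokinesis failure (0.18). It was thus above control in all 3 doubled populations of the line, opposite to most members.

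Of the members that fell, RAPGEF2, an exchange factor that activates the small GTPase Rap, had the largest fold change and the lowest level. It stood at 2.06, 3.48 and 3.05 CPM in the fused cells, against 6.26, 6.96 and 6.47 CPM in control. The groups lay apart, at -1.18 ± 0.32 (edgeR adjusted p = 0.00616), but the call was lost without fusion replicate 1 (0.0597) and with DESeq2 (0.0549). LRBA, a BEACH-domain protein that keeps the immune receptor CTLA4 from degradation in lymphocytes, stood at 19.8, 13.6 and 18.6 CPM in the fused cells, against 27.5, 26.2 and 24.8 CPM in control. It fell without overlap, at -0.59 ± 0.15 (edgeR adjusted p = 0.00219; 0.0579 without fusion replicate 2, the lowest library). Limma on log2(TPM + 1) and log2(TPM + 0.1) did not call LRBA (adjusted p = 0.0514 and 0.0557).

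FAT1, an atypical cadherin near the end of the arm (186587794 to 186726696), stood at 51.9, 46.7 and 41.1 CPM in the fused cells, against 60.95, 66.96 and 63.6 CPM in control. The groups did not overlap, and it fell by 0.45 ± 0.092 (edgeR adjusted p = 0.000186), a call lost only with limma on log2(TPM + 0.1) (adjusted p = 0.0506). FAT1 stood at 50.3, 45.9 and 47.7 CPM after cytokinesis failure (-0.41) and 53.4, 64.97 and 57.96 CPM after slippage (-0.12). The cytokinesis failure libraries lay below all controls and the slippage libraries among and below them. In MDA-MB-231 it stood at 71.5, 80 and 77.2 CPM in fused cells (0.48), 57.4, 53.1 and 54.1 CPM after slippage and 53.5, 53.1 and 53.7 CPM after cytokinesis failure, against 60.9, 56 and 47.7 CPM in control. There the fused libraries alone lay above all controls.

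CLCN3, an endosomal chloride-proton exchanger, stood at 30.1, 22.6 and 24.1 CPM in fused HCC1806 cells, against 30.8, 33.1 and 36.7 CPM in control. Fusion replicate 1 lay just below the lowest control, and the fold change was -0.39 ± 0.12 (edgeR adjusted p = 0.0252). The call was lost without control replicate 3 (0.170), fusion replicate 2 (0.164) or fusion replicate 3 (0.106), with DESeq2 (0.142) and with limma on the 2 TPM scales (0.0874 and 0.0855). PGRMC2, a haem-binding membrane protein, stood at 35.98, 43.5 and 55.8 CPM in the fused cells, against 53.1, 55.7 and 60.3 CPM in control. Here the groups overlapped, at -0.33 ± 0.10 (edgeR adjusted p = 0.0205). The call was lost without control replicate 3 (0.139), fusion replicate 1 (0.317, with the fold change at -0.19) or fusion replicate 2 (0.0912), with DESeq2 (0.141) and with limma on both TPM scales (0.134).

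**Figure D3:**
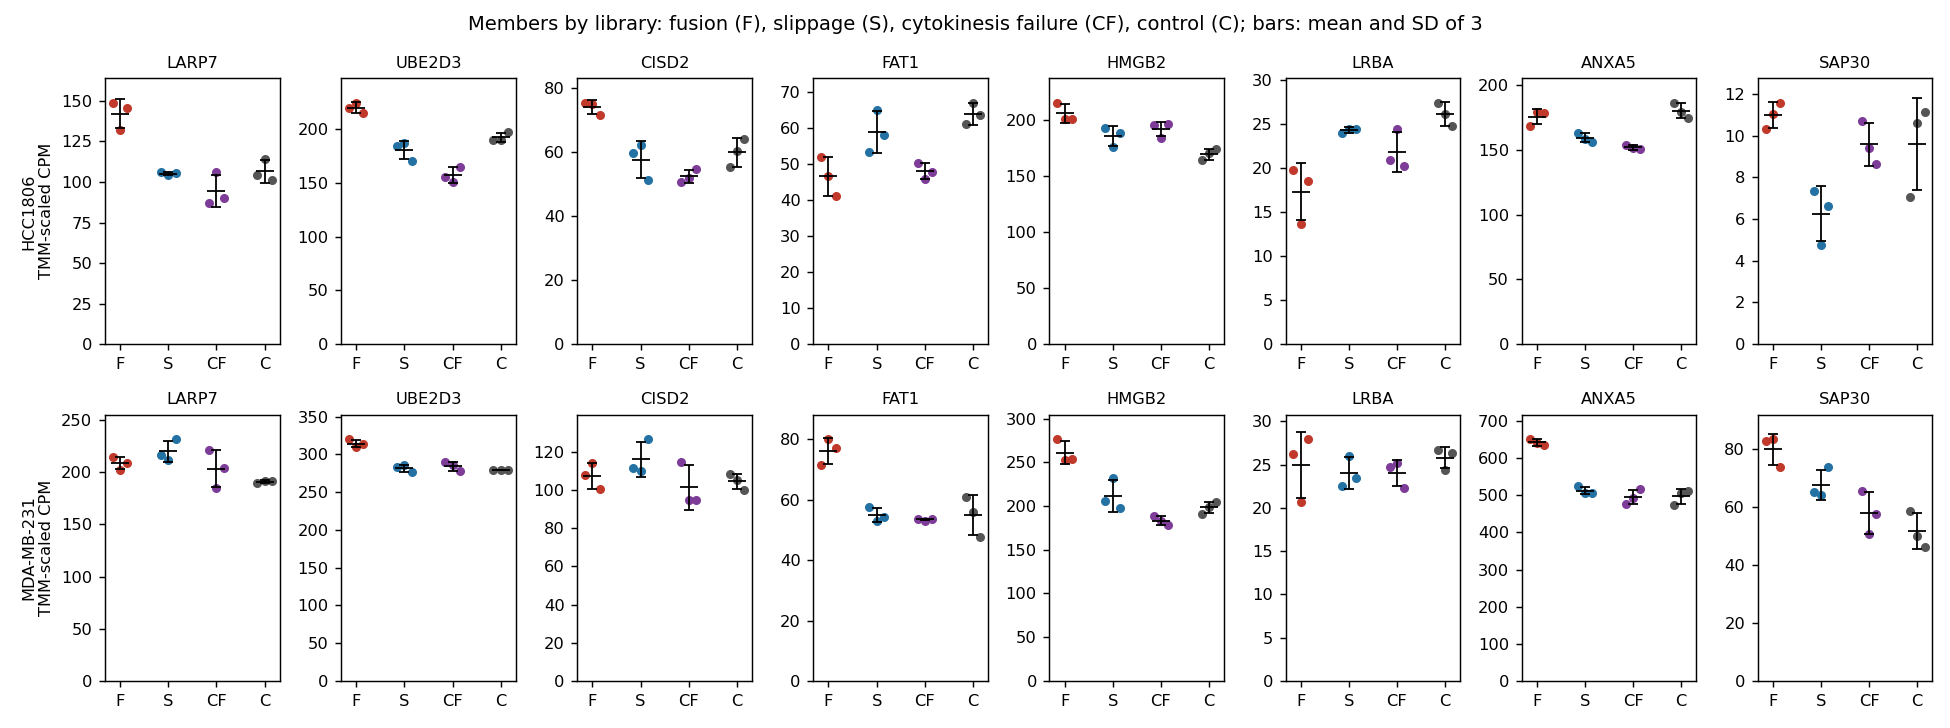
TMM-scaled CPM of 8 members in every library; the upper row is HCC1806 and the lower row MDA-MB-231, each panel holds fusion (F), slippage (S), cytokinesis failure (CF) and control (C), points are libraries and bars the mean and SD of 3. LARP7, UBE2D3 and CISD2 stand above control in fused HCC1806 cells, where FAT1 and LRBA stand below it.

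Arranged by role, the members had different medians in HCC1806 fusion, and the differences between roles were not tested. All 7 signalling and cytoskeletal members had negative fold changes, with a median of -0.32, and 2 of the 7 (RAPGEF2 and FAT1) were called lower. Of 15 traffic members tested, 11 were negative, with a median of -0.10 and 3 called lower (LRBA, CLCN3 and PGRMC2). Of 10 metabolic members, 7 were positive, with a median of 0.18, and 1 was called higher (CISD2). The 10 RNA members had a median of 0.028 and 1 called higher (LARP7), the 8 turnover members -0.15 and 1 higher (UBE2D3), and the 8 chromatin members -0.15 and 1 higher (HMGB2).

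A run of neighbouring members shared a positive sign in HCC1806 fusion, a pattern noticed after their values were seen and not tested. UBE2D3, CISD2, PPA2, HADH and LARP7 follow each other between 102794383 and 112657586 on chromosome 4, with the untested TBCK among them, and all 5 had positive fold changes in HCC1806 fusion. PPA2, the mitochondrial pyrophosphatase, stood at 28.9, 26.7 and 25.6 CPM in the fused cells, against 19.3, 20.2 and 25.4 CPM in control (0.32 ± 0.14, edgeR adjusted p = 0.133). HADH, an enzyme of mitochondrial fatty acid oxidation, stood at 23, 18.6 and 21.03 CPM, against 17.1, 18.9 and 16.3 CPM in control (0.26 ± 0.15, edgeR adjusted p = 0.296). Neither was called, and HADH overlapped control. The next 2 members along the arm, the kinase CAMK2D (-0.39) and the COPII coat protein SEC24D (-0.32), had negative fold changes and were not called. Of all 23 tested genes between 100 and 110 Mb, 20 had positive fold changes, with a median of 0.19 and 4 called higher. The 16 tested genes between 110 and 120 Mb, LARP7 among them, had a median of -0.038. Of these, 7 had positive and 9 negative fold changes, with 1 called higher. From 120 Mb on, the 20-Mb windows had medians of -0.12, -0.12, -0.14 and -0.19.

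In the other HCC1806 populations, set against the same controls, the run of members around 105 Mb had negative fold changes. Members were chosen as lower in these comparisons, so the signs describe the choice and carry no test. The log2 fold changes were -0.092 for UBE2D3, -0.057 for CISD2, -0.036 for PPA2, -0.028 for HADH and -0.012 for LARP7 after slippage. After cytokinesis failure they were -0.29, -0.19, -0.15, -0.097 and -0.17 in that order. Over whole windows, 4q genes after cytokinesis failure had medians of 0.0020 between 50 and 60 Mb, -0.13 between 60 and 80 Mb, -0.093 between 80 and 100 Mb and -0.25 between 100 and 120 Mb. The windows beyond held -0.16, -0.30, -0.14 and -0.27.

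**Figure D4:**
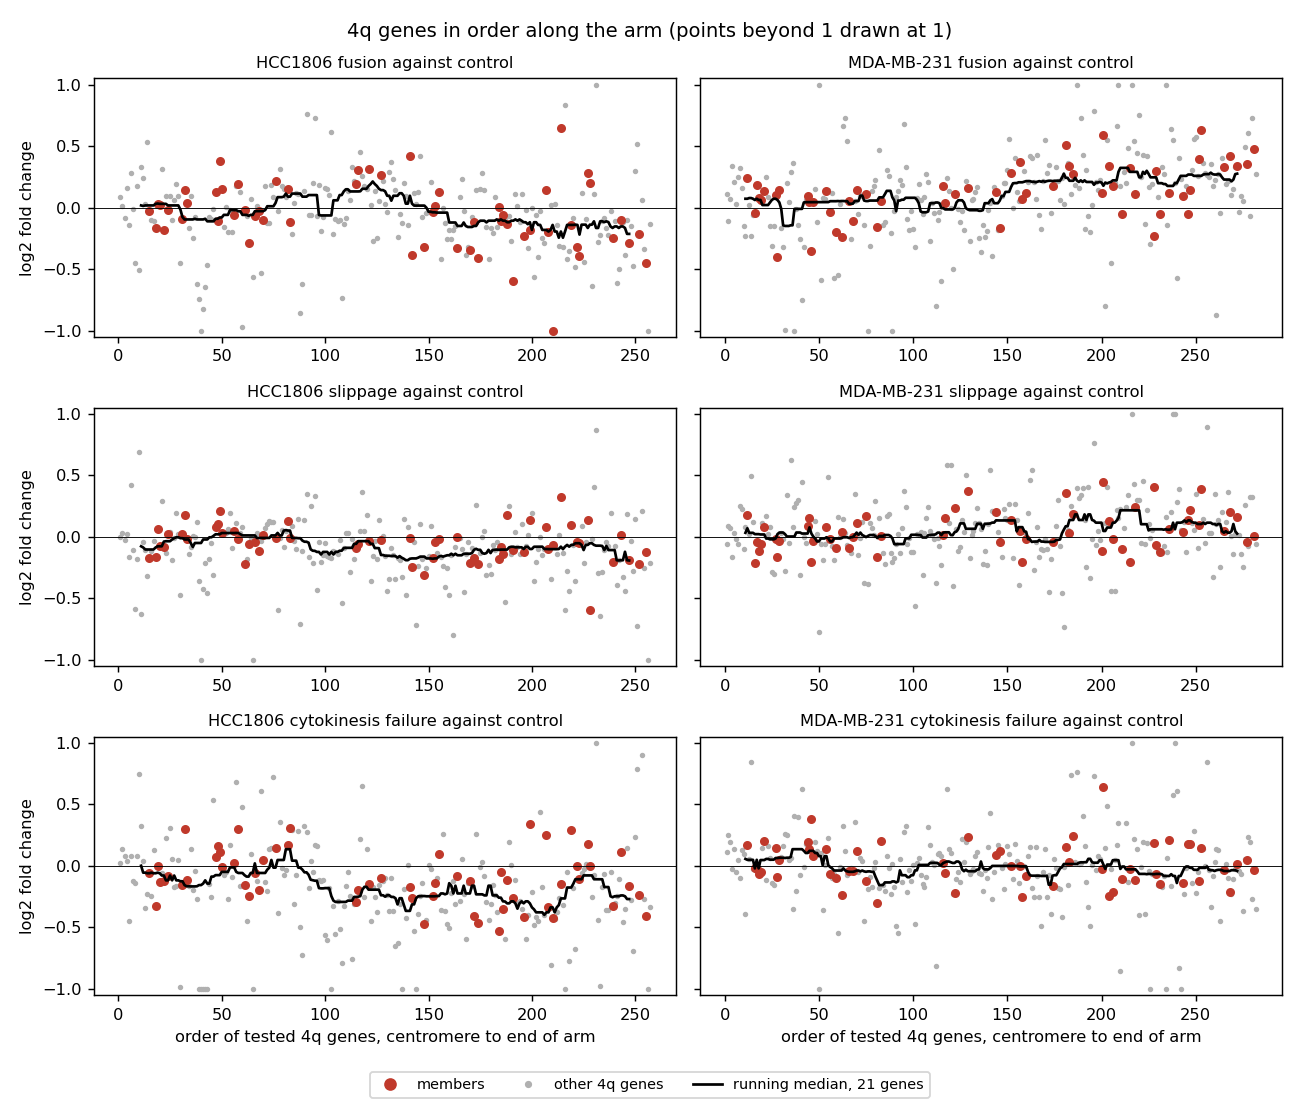
Log2 fold changes of tested 4q genes in order from the centromere to the end of the arm (x axis, rank of the gene; y axis, log2 fold change, with points beyond 1 either way drawn at 1); red points are members, grey points other 4q genes and the line a running median of 21 genes. In fused HCC1806 cells the line rises above 0 in mid-arm and falls below it after, and in fused MDA-MB-231 cells it lies above 0 over the outer part.

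In fused MDA-MB-231 cells, window medians over all 4q genes, members included, were higher beyond 120 Mb than before it. They were of 0.075 between 50 and 60 Mb, -0.011 between 60 and 80 Mb, 0.064 between 80 and 100 Mb and 0.016 between 100 and 120 Mb. Beyond 120 Mb the windows held 0.21, 0.21, 0.27 and 0.27. The outer windows held 40 genes called higher and 1 lower. All 8 chromatin members and all 8 turnover members had positive fold changes in this comparison, with medians of 0.41 and 0.24. Members were chosen as higher here, and 45 of all 58 were positive. Role and position along the arm were not separated, so these counts describe the choice and carry no test.

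SAP30, a subunit of the SIN3 histone deacetylase complex, had the largest fold change among members in fused MDA-MB-231 cells, with 82.6, 83.3 and 73.8 CPM, against 58.6, 50.1 and 46.3 CPM in control (0.63). Its next neighbour on the list, HMGB2, stood at 276, 253 and 254 CPM in fused cells, against 191, 199 and 204 CPM in control (0.40). ING2, a PHD-finger protein of the same SIN3 complex, stood at 62.6, 68.1 and 66.4 CPM in fused cells, against 52.8, 55.4 and 49.3 CPM in control (0.33). The fused libraries lay above the controls for all 3 genes. In HCC1806, SAP30 was low and variable, at 7.35, 4.78 and 6.63 CPM after slippage and 10.7, 9.39 and 8.65 CPM after cytokinesis failure, against 7.08, 10.6 and 11.1 CPM in control. It had the largest fold change of any member after slippage (-0.60) and the smallest after cytokinesis failure (0.0016), and its slippage libraries overlapped control. ING2 stood at 38.9, 34.5 and 28.04 CPM after fusion (-0.25, edgeR adjusted p = 0.155), 37.9, 31.9 and 34.9 CPM after slippage (-0.20) and 32.6, 35.2 and 28.9 CPM after cytokinesis failure (-0.32), against 39.5, 42.1 and 39.6 CPM in HCC1806 control. All 9 doubled libraries of HCC1806 lay below all its controls for ING2, while the fusion call was not made.

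OTUD4, of the OTU family of deubiquitinases, had the largest fold change among members in HCC1806 cytokinesis failure, with 28.9, 29.5 and 25.7 CPM, against 38.1, 37.8 and 45 CPM in control (-0.53). In the fused cells of that line it stood at 38.6, 44.99 and 38.1 CPM (0.0041 ± 0.11), among the controls. NAA15, the anchoring subunit of the NatA N-terminal acetyltransferase, stood at 71.7, 80.8 and 82.8 CPM after cytokinesis failure, against 107, 97.8 and 107 CPM in HCC1806 control (-0.41), below every control. ANXA5, a calcium-dependent binder of phosphatidylserine, stood at 154, 151 and 150.5 CPM after cytokinesis failure (-0.25) and 163, 159 and 156 CPM after slippage (-0.18), against 186, 179 and 175 CPM in HCC1806 control. Its libraries after fusion, at 169, 179 and 179 CPM, overlapped control. In fused MDA-MB-231 cells ANXA5 stood at 651, 642 and 634 CPM (0.37) and NAA15 at 148, 148 and 137 CPM (0.34), against 474, 507 and 511 CPM and 114, 116 and 112 CPM in control. Both lay above all controls there.

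PPAT and PAICS, neighbours that encode enzymes of purine synthesis and start back to back, did not share a fold change. PPAT was at 63.3, 71.5 and 66.95 CPM in HCC1806 cytokinesis failure, against 90.1, 84.2 and 79.2 CPM in control (-0.33). PAICS was at 262, 277 and 267 CPM, against 269, 272 and 265 CPM in control (0.002). In fused HCC1806 cells PPAT changed by -0.17 ± 0.076 (edgeR adjusted p = 0.155) and PAICS by 0.033 ± 0.048 (0.745). Neither was called, and the difference between the neighbours was not tested. The back-to-back starts are those of GENCODE. In RefSeq the spans of PPAT (56393362 to 56435615) and PAICS (56410507 to 56464578) overlap on opposite strands. The strand setting of the counting is not given in the sources used here, so reads of the overlap could go to either gene. The 3′ ends of both genes, which TAGseq reads, lie outside that overlap.

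**Figure D5:**
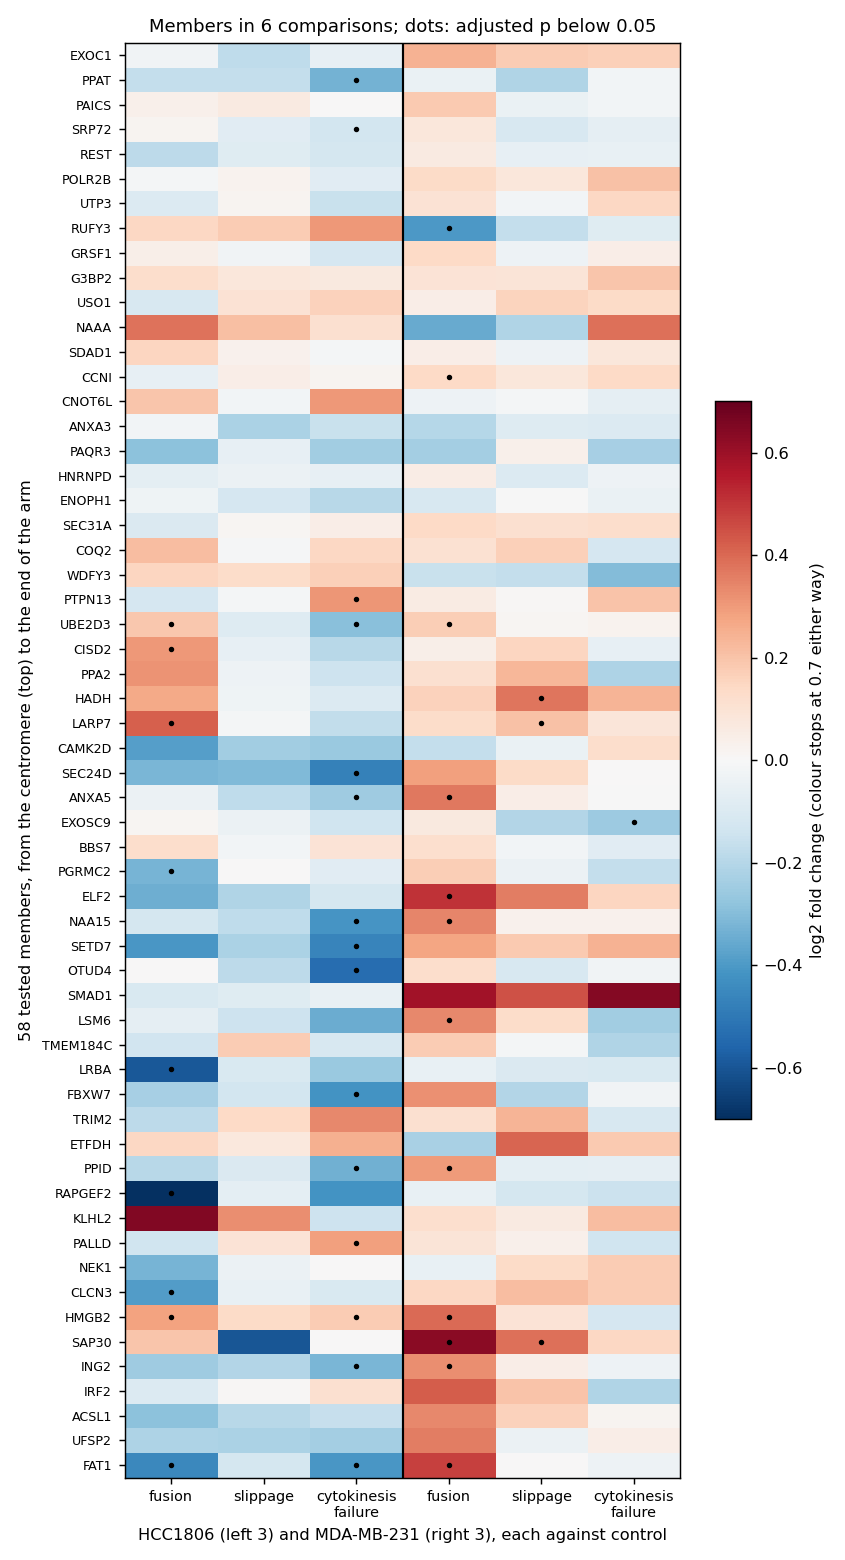
Log2 fold change of the 58 tested members (rows, from the centromere at the top to the end of the arm) in fusion, slippage and cytokinesis failure against control of HCC1806 (left) and MDA-MB-231 (right); red is higher and blue lower than control, and dots mark an edgeR adjusted p below 0.05. In fused HCC1806 cells the members from UBE2D3 to LARP7 are red and most of those below them blue.

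In slippage-derived MDA-MB-231 cells, HADH, SAP30 and LARP7 rose. These were 3 of 58 members, all higher, where 6.18% of all genes tested were called (3.27% higher and 2.91% lower); 10 members had an unadjusted p below 0.05. The members' share of calls was near the background. Of the 58, 33 fold changes were positive, with a median of 0.032, beside 0.041 for the other 4q genes (12 called higher and 5 lower of 224) and 0.0014 for all genes. Limma on log2(TPM + 1) and log2(TPM + 0.1) called 0 of the members. Members were chosen as higher in fusion against the same controls, so these fold changes are pulled upwards by the choice. The 8 chromatin members had 7 positive fold changes and a median of 0.19, and the 15 traffic members a median of -0.016.

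HADH stood at 65.9, 67.95 and 73.1 CPM after slippage, against 52.3, 54.1 and 53.4 CPM in control. All slippage libraries were above all controls, and it rose by 0.37 ± 0.088 (edgeR adjusted p = 0.00599), a call kept without any 1 library and lost with limma on the 2 TPM scales (adjusted p = 0.0702 and 0.0746). In the other MDA-MB-231 populations HADH was at 60.01, 59.9 and 58.6 CPM after fusion (0.16) and 65.04, 58.5 and 65.3 CPM after cytokinesis failure (0.24). All 9 doubled libraries of the line lay above its controls, and the cytokinesis failure difference was not called (edgeR adjusted p = 0.145).

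SAP30 stood at 65.03, 64.05 and 73.7 CPM after slippage, against 58.6, 50.1 and 46.3 CPM in MDA-MB-231 control. The groups did not overlap, at 0.39 ± 0.10 (edgeR adjusted p = 0.0131). The call was lost without control replicate 2 (0.0701), control replicate 3 (0.120) or slippage replicate 3 (0.0814), which is 1 of the 2 noisier libraries, and with limma (0.117 and 0.119). LARP7 stood at 216, 212 and 232 CPM after slippage, against 189, 192 and 192 CPM in control. The groups lay apart, at 0.20 ± 0.062 (edgeR adjusted p = 0.0389). That call was lost without control replicate 1 (0.133), 2 (0.112) or 3 (0.109), without slippage replicate 1 (0.0630) or 3 (0.187), without both noisier libraries (0.0953), with DESeq2 (0.0994) and with limma (0.262 and 0.265).

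In MDA-MB-231 cells doubled by cytokinesis failure, EXOSC9, a core subunit of the RNA exosome, fell, and no other member was called. It stood at 103, 121 and 102 CPM, against 127, 135 and 129 CPM in control, with all 3 libraries below the controls. The log2 fold change was -0.25 ± 0.071 (edgeR adjusted p = 0.0283), and the call was lost without control replicate 1 (0.0678), 2 (0.15) or 3 (0.0781), without cytokinesis failure replicate 1 (0.0761) or 3 (0.176), with DESeq2 (0.104) and with limma (0.106 and 0.11). After slippage, against the same controls, EXOSC9 stood at 117, 111 and 112 CPM (-0.20 ± 0.071, edgeR adjusted p = 0.0782), also below all controls. That was 1 of 58 members called, where 4.64% of all genes tested were called (2.29% higher and 2.35% lower), and 8 members had an unadjusted p below 0.05. The members' median was -0.021, beside -0.016 for the other 4q genes and -0.0017 for all genes. SMAD1, a transducer of BMP signals picked out after its values were seen, had the largest positive fold change (0.64 ± 0.26, edgeR adjusted p = 0.162). It stood at 10.7, 8.21 and 8.33 CPM after cytokinesis failure, 6.08, 6.51 and 10.8 CPM after slippage and 7.87, 9.13 and 8.69 CPM after fusion, against 6.89, 5.32 and 4.88 CPM in control, and was not called in any of the 3.

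Set directly against slippage, MDA-MB-231 cells doubled by cytokinesis failure had lower PPA2 and HMGB2. PPA2 stood at 46.1, 56.96 and 57.2 CPM after cytokinesis failure, against 65.3, 73.2 and 83.3 CPM after slippage. The groups did not overlap, at -0.45 ± 0.10 (edgeR adjusted p = 0.00929; 0.0698 without slippage replicate 3, the highest library and a noisier one). Without both noisier libraries the fold change was -0.285 (adjusted p = 0.166), and limma did not call it (0.153 and 0.157). HMGB2 stood at 188, 183 and 178 CPM after cytokinesis failure, against 205, 232 and 198 CPM after slippage. The groups lay apart, at -0.21 ± 0.063 (edgeR adjusted p = 0.0486). The call was lost without slippage replicate 1 (0.0646) or 2 (0.348, with the fold change at -0.14), without cytokinesis failure replicate 2 (0.110) or 3 (0.175), with DESeq2 (0.108), RLE factors (0.0521), the replicate block (0.0775), the 6 libraries alone (0.137) and limma (0.213 and 0.215). These were 2 of 58 members called, where 3.18% of all genes were called (1.08% higher and 2.10% lower), with a member median of -0.015.

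Several abundant members were not called in fused HCC1806 cells. HNRNPD, which binds AU-rich elements of messenger RNAs, stood at 553, 574 and 559 CPM after fusion, 573, 581 and 563 CPM after slippage and 581, 549 and 567 CPM after cytokinesis failure, against 601, 601 and 565 CPM in HCC1806 control. Its log2 fold changes in the 6 comparisons with control lay between -0.094 (MDA-MB-231 slippage) and 0.052 (MDA-MB-231 fusion). SRP72, a protein of the signal recognition particle, stood at 324, 308 and 309.6 CPM in fused HCC1806 cells, against 308, 326 and 299 CPM in control (0.017 ± 0.047). CCNI, an atypical cyclin, stood at 279, 279 and 249.6 CPM in fused HCC1806 cells, against 276, 293 and 274 CPM in control (-0.059 ± 0.049). Both overlapped control. PAICS stood at 268, 265 and 292 CPM in fused HCC1806 cells, against the control values given above. The RNA-binding proteins GRSF1 of mitochondrial RNA granules (0.041 ± 0.059) and G3BP2 of stress granules (0.13 ± 0.061), the COPII coat protein SEC31A (-0.10 ± 0.066) and the methionine salvage enzyme ENOPH1 (-0.03 ± 0.082) were not called in fused HCC1806 cells either.

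Other members lay outside the range of control without a call, or had the smallest fold changes. REST, a repressor of neuronal genes, stood at 87.3, 90.8 and 90.8 CPM in fused HCC1806 cells, against 101, 96.8 and 107 CPM in control. The groups did not overlap, and the difference of -0.19 ± 0.069 was not called (edgeR adjusted p = 0.067). G3BP2 stood at 183, 201 and 203 CPM in MDA-MB-231 after cytokinesis failure, against 173, 176 and 168 CPM in control, again without overlap or call (0.19 ± 0.06, edgeR adjusted p = 0.0544). PALLD, an actin-bundling scaffold, stood at 40.1, 38.6 and 40.2 CPM in fused HCC1806 cells, against 45.99, 41.4 and 43.2 CPM in control (-0.14 ± 0.11, edgeR adjusted p = 0.473). Its fused libraries lay just below all controls, while its cytokinesis failure libraries lay above them at 61.3, 46.4 and 52.1 CPM (0.29). CNOT6L, a deadenylase of the CCR4-NOT complex, had the smallest fold change among members in fused MDA-MB-231 cells, with 22.9, 32.9 and 26.7 CPM, against 29.01, 30.4 and 25.7 CPM in control (-0.036). PGRMC2 had the smallest in HCC1806 slippage, with 59.6, 52.5 and 56.8 CPM, against the control values given above (0.0015).

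The parental lines themselves differed in these genes. In TPM, which divides by transcript length although 3′ tags do not grow with it, 40 of the 58 members tested in both lines were lower in all 3 HCC1806 controls than in all 3 MDA-MB-231 controls. Another 7 were higher in all 3, and 11 overlapped. Of 10382 genes in that comparison, 43.3% were lower and 30.8% higher in this sense. The median log2 difference, HCC1806 over MDA-MB-231 on log2(TPM + 1), was -0.44 for members, -0.49 for the other 4q genes and -0.12 for all genes. SAP30 stood at 7.32, 10 and 11.2 TPM in HCC1806, against 59.6, 51.5 and 46 TPM in MDA-MB-231, a log2 difference of -2.35 and the most negative of the list. ANXA5 stood at 123, 107 and 112 TPM in HCC1806, against 307, 332 and 323 TPM in MDA-MB-231 (-1.48). PTPN13, a tyrosine phosphatase, went the other way, with 5.18, 5.51 and 6.73 TPM in HCC1806, against 1.61, 1.46 and 1.04 TPM in MDA-MB-231 (1.52). HNRNPD had the highest level of the list in HCC1806, with 268 ± 14 TPM, against 246 ± 13.1 TPM in MDA-MB-231 (SD, n = 3 each). The levels of HNRNPD and of the 3 genes named before it lay apart between the lines without overlap. For HNRNPD the gap was narrow, with 259 TPM in the lowest HCC1806 control and 256 TPM in the highest MDA-MB-231 control. This comparison of lines carries no test.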

How the data were processed

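TAGseq libraries of 24 samples were analysed, in 8 groups of 3. The authors deposited estimated counts for each gene, made with Salmon after STAR on GRCh38, per the submitters' processing notes, and deposited TPM in a table of its own. Tool versions, annotation, strand setting and handling of duplicates are not given in the sources used here. The members and lists were chosen with earlier results of these data known.

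Estimated counts (4.41% of them not whole) were rounded and fitted for each line apart, on its 12 libraries, with edgeR 4.0.16 in R 4.3.3 (filterByExpr with a minimum of 10, TMM, robust quasi-likelihood F-tests), over 11467 genes in HCC1806 and 11424 in MDA-MB-231. A Benjamini-Hochberg adjusted p below 0.05 over all of them is a call, and an adjusted p named in brackets beside a left-out library comes from the same test. Log2 fold changes are doubled over control, with the standard error after ±; levels are TMM-scaled CPM of each replicate in the order 1, 2, 3. Totals of 2455707 to 4030297 counts set the precision. Biological coefficients of variation were 3.88% (HCC1806) and 5.28% (MDA-MB-231).

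Named members are the 3 of highest level in each of 6 roles, those called in a comparison other than the 3 that chose the list, and those of largest and smallest fold change in those 3; others were picked for position or after their values were seen, as stated. Arms were set from RefSeq positions (GRCh38.p14), split at centromeres rounded to whole Mb, which placed 97.7% of tested genes, and back-to-back starts from GENCODE, within 1000 bases. Alternatives were DESeq2 1.42.0, RLE factors, limma 3.58.1 on log2 TPM with a pseudocount of 1 or 0.1, omission of the filter, a stricter filter, the 6 libraries compared, left-out libraries and a replicate block. The code of the edgeR fits was also run on counts simulated from the means and common spread of these data, with an outcome not reported here. The low-pass genome sequencing was not analysed here.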

Additional observations from a re-analysis of the deposited data

Results flagged for a closer look

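For several members, all doubled libraries lay below the controls in HCC1806 and above them in MDA-MB-231, or the reverse, after the same route of doubling. The share of all tested genes that do so was not counted, so these cases are read gene by gene. Some gaps were small. CLCN3 in HCC1806 reached 30.08 CPM after fusion, against 30.75 CPM in the lowest control. REST in MDA-MB-231 stood at 134.1 CPM or more after fusion, against 133.0 CPM in the highest control. Of those below, FAT1 alone was called by edgeR in both lines, and its call in MDA-MB-231 fusion carries no test. The difference between the lines was not tested for any of them. Members were chosen as higher in MDA-MB-231 fusion and as lower in HCC1806 cytokinesis failure. The MDA-MB-231 values after fusion and the HCC1806 value of HMGB2 are thus not independent of the choice. FAT1 differed most after fusion, by -0.928 on the log2 scale (HCC1806 minus MDA-MB-231), with -0.449 in HCC1806 and 0.479 in MDA-MB-231. ING2 differed by -0.576 (-0.249 and 0.327 in the same order), CLCN3 by -0.536 (-0.392 and 0.143), REST by -0.248 (-0.186 and 0.0617) and PALLD by -0.23 (-0.139 and 0.0911). Of the 3 single-library medians over the 58 members after fusion, relative to the control mean of each line, the middle one differed by -0.156, with -0.0352 in HCC1806 and 0.121 in MDA-MB-231. The MDA-MB-231 value is among those that chose the members. HMGB2 differed after cytokinesis failure, by 0.298, with 0.179 in HCC1806 and -0.119 in MDA-MB-231.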

How the results depend on the processing

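No result changed direction past its threshold. Called members numbered 15 in HCC1806 cytokinesis failure, 12 in MDA-MB-231 fusion, 9 in HCC1806 fusion, 3 in MDA-MB-231 slippage, 1 in MDA-MB-231 cytokinesis failure and 2 in its comparison with slippage. With DESeq2 they numbered 7 (0 higher, 7 lower), 7 (7 higher, 0 lower), 4, 2, 0 and 1 in that order. With limma on log2(TPM + 1) they numbered 5, 6 (4 higher, 2 lower), 4, 0, 0 and 0, and on log2(TPM + 0.1) 5, 6, 3 (2 higher, 1 lower), 0, 0 and 0. On TPM the members' median was -0.0732 and -0.0881 in HCC1806 slippage (pseudocounts 1 and 0.1), -0.0573 and -0.0658 in HCC1806 cytokinesis failure, -0.107 and -0.109 in HCC1806 fusion, and 0.000156 and 0.000154 in MDA-MB-231 fusion, where TPM moved the median of all genes to -0.105 and -0.121. Without both noisier libraries, 3 members (2 higher, 1 lower) were called in MDA-MB-231 cytokinesis failure and 1 in its comparison with slippage, where RLE factors and the fit of 6 libraries also gave 1. The cause of these moves was not tested.

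Leaving out 1 library gave 6 to 13 called members and a median of -0.154 to -0.0805 in HCC1806 cytokinesis failure (6 without its replicate 1), 6 to 12 in MDA-MB-231 fusion (6 without control replicate 3, 7 without fusion replicate 1), and 5 to 10 and -0.0844 to -0.0579 in HCC1806 fusion (5 without fusion replicate 2). It gave 1 to 3 in MDA-MB-231 slippage (1 without control replicate 2 or 3 or slippage replicate 3), 0 to 2 in MDA-MB-231 cytokinesis failure and 1 to 3 in its comparison with slippage. A lone pair left in a group is assumed to vary like the other groups. The replicate numbers did not pair the libraries: same-number correlations of deviations ran from -0.038 to 0.036 in HCC1806 and from -0.30 to 0.31 in MDA-MB-231. Across numbers, control 2, fusion 3, slippage 2 and cytokinesis failure 3 of MDA-MB-231 correlated with each other at 0.23 to 0.33. Other pairs of that line ran from -0.30 to 0.20. The fits took no account of this shared variation, and its source was not tested. The replicate block left 1 called member in MDA-MB-231 cytokinesis failure against slippage (HMGB2 lost, adjusted p = 0.0775) and moved no other count of members by over 1.5 times. The 10-Mb windows were added after the data were seen. Members at a few CPM, such as RAPGEF2 in HCC1806, rest on few reads.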

Other observations

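In slippage-derived MDA-MB-231 cells the 4q genes, members included, also differed along the arm, in windows of 10 Mb chosen after the data were seen. The median log2 fold change was 0.14 over 17 genes between 110 and 120 Mb, with 3 called higher, and -0.026 over 23 genes between 120 and 130 Mb. Between 140 and 150 Mb it was 0.12 over 22 genes, between 150 and 160 Mb 0.16 over 22 and between 160 and 170 Mb 0.12 over 18, with 2, 3 and 2 called higher in that order. The windows from 70 to 90 Mb had medians of -0.0041 and -0.0026, those from 50 to 70 Mb 0.0507 and -0.134, and those from 90 to 110 Mb 0.0182 and 0.043. Between 130 and 140 Mb the median was 0.12 over 10 genes, with 1 called lower and 0 higher. From 170 to 190 Mb the medians were 0.0957 and 0.0352. Of all genes tested, 3.27% were called higher. Members were chosen as higher in fusion against the same controls. The values describe single windows, with no test between them.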
